A study of Mus musculus with 12 samples.

Results

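The cells described here are synovial fibroblasts of mice with serum transfer arthritis that also received an interleukin-23 minicircle (STA_Il23mc), set against fibroblasts of mice with serum transfer arthritis alone (STA). They were chosen by the condition and annotation columns of the authors' cell table: cells of the fibroblast well of experiment 1 whose condition is STA_Il23mc or STA and whose annotation is Mmp3+, Il6+ or Pi16+. This gives 1788 of the 8042 cells of the series, 916 of them STA_Il23mc and 872 STA. All animals were R5 x R26tdTomato mice of the genotype Il5 wt/Cre; R26 tdTom/tdTom, 8 to 10 weeks old, so that the STA_Il23mc, STA and healthy groups share a Cre at the Il5 locus and a tdTomato reporter. Viable CD45- GR-1- cells were sorted from ankle and wrist joints. Each condition carried 1 hashtag (an antibody with a DNA barcode), and the cells of the 3 conditions were then mixed in 1 well of 10x 3' single-cell RNA chemistry. The labels speak of 4 animals pooled per well and do not say how many stand behind each hashtag.

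Serum transfer arthritis is set off by serum that holds antibodies to glucose-6-phosphate isomerase, and it swells and then resolves. A minicircle is a small circle of DNA that, once injected, makes the recipient secrete the encoded protein for a long time. IL-23, a dimer of the chains encoded by Il23a and Il12b, acts on lymphocytes that carry its receptor and promotes their release of IL-17 and IL-22. Fibroblasts carry the IL-17 receptor chains Il17ra and Il17rc, and answer IL-17, best together with TNF, with neutrophil-attracting chemokines, IL-6 and acute-phase proteins such as lipocalin-2 (Lcn2) and serum amyloid A3 (Saa3). Interferon-gamma, another lymphocyte cytokine, induces a family of large and immunity-related GTPases. Of the annotations, Mmp3 encodes stromelysin-1, a protease that cleaves matrix, Il6 the cytokine, and Pi16 a marker of a fibroblast population found in many tissues.

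The comparison turns on hashtags, so their oligos are given, as listed in the deposited feature table, 5′ to 3′, with no base marked.

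STA + Il23: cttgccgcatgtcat
STA: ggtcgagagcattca
healthy: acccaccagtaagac

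The promoters of 3 genes that stood out are shown because their families moved together. They come from RefSeq (GRCm38.p6), from 250 bases before to 50 bases after the start, and are written 5′ to 3′ on the gene's strand. Capitals mark matches to the C/EBP motif TTNNGCAA, to the interferon-stimulated response element (ISRE), here GAAA, NN and GAAA again, and to the interferon-gamma activated site (GAS) TTCNNNGAA, searched on both strands. Lcn2, at chr2:32387690-32387989 on the minus strand, holds a C/EBP match. Saa3, at chr7:46715627-46715926 on the minus strand, holds an ISRE match and then a C/EBP match. Igtp, which encodes an interferon-induced GTPase, at chr11:58199306-58199605 on the plus strand, holds a GAS match and then an ISRE match.

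Lcn2: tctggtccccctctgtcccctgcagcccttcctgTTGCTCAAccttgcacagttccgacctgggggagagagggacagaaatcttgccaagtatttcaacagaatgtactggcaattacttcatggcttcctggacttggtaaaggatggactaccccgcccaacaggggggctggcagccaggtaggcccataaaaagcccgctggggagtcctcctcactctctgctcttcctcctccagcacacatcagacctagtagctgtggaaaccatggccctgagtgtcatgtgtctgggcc
Saa3: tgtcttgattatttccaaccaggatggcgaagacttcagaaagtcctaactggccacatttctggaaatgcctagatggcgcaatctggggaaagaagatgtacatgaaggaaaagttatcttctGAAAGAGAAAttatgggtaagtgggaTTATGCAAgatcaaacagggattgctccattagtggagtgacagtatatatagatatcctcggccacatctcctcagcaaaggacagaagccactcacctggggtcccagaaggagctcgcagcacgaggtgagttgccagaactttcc
Igtp: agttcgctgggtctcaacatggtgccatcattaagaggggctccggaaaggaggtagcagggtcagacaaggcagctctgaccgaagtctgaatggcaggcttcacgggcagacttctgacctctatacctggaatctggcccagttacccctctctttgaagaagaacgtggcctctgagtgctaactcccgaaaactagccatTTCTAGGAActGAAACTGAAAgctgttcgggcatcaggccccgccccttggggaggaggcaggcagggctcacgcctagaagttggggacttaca

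Of the 11 acute-phase genes with a promoter in the table, 7 held the C/EBP motif (63.6%), against 10.8% of all 27025 promoters. Of the 10 interferon-inducible GTPases with a promoter, 9 held the ISRE motif (90.0%), against 3.49% of all promoters, and 6 held the GAS motif (60.0%), against 8.47%. The 13 genes past 2-fold higher in all 3 annotations were nearer to all promoters: of the 11 with a promoter, 2 held the C/EBP motif (18.2%), 2 the ISRE (18.2%) and 1 the GAS motif (9.09%). An NF-kB motif was also searched, and held by 1 of these 11, 2 of the 11 acute-phase and 1 of the 10 GTPase promoters, against 5.55% of all. A match is a description of the letters and not a site shown to be bound.

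In the STA_Il23mc hashtag the files held 634 Mmp3+, 227 Il6+ and 55 Pi16+ cells, and in the STA hashtag 655, 137 and 80. Summed UMIs (counted molecules) of STA_Il23mc and STA cells came to 13446356 and 13310572 in Mmp3+, 2532673 and 1333482 in Il6+, and 582193 and 898306 in Pi16+ cells. The median UMI count per cell was 20282 in STA_Il23mc and 19509 in STA Mmp3+ cells, 10541 and 9327 in Il6+ cells, and 8496 and 9229 in Pi16+ cells. The pairs were thus of like depth per cell, while their summed UMIs were not alike in Il6+ and Pi16+ cells. The hashtag with the most UMIs in a cell held a median of 75.7% of its hashtag UMIs in STA_Il23mc cells. It held 86.7% in STA cells and 45.2% in healthy cells. Cells called healthy had a median of 178 UMIs of the healthy oligo and 216 UMIs of the STA oligo. The healthy calls thus rest on the weakest signal. Cells with Xist and no Y-linked UMI and cells with the reverse were found under both hashtags: 590 and 261 in STA_Il23mc, and 340 and 495 in STA. Each hashtag thus held female and male animals, in unequal proportion (69.3% of these cells had Xist in STA_Il23mc and 40.7% in STA), and values within each class are given beside the main results. With 1 hashtag a side there is no replicate check: no difference below has a p-value, and the 95% intervals are exact and cover counting error only. Experiment 2 holds 2 further STA hashtags in another well, which the feature table calls severe and mild (695 cells of the 3 annotations), and a healthy one; they show how far hashtags of like treatment lay apart, although the mild one held only cells of the Xist class. The fibroblast wells share 4 of their 6446 and 4282 barcodes, none of them among the kept cells.

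The annotations were made by the authors with these same genes, so marker levels are a description. In STA_Il23mc cells Mmp3 stood at 4455 UMIs per 1e6 UMIs (CPM) in Mmp3+, 1308 in Il6+ and 423 CPM in Pi16+ cells. Il6 stood at 1346 CPM in Il6+, 551 in Mmp3+ and 119 CPM in Pi16+ cells. Pi16 stood at 3224 CPM in Pi16+, 1409.6 in Il6+ and 297 CPM in Mmp3+ cells. Each gene was thus highest in the annotation named for it. All 9 fibroblast markers examined were detected in each annotation. In Mmp3+ cells 8 macrophage markers summed to 6.1 CPM in STA_Il23mc and 5.63 CPM in STA, and 9 T cell markers to 10.6 and 12.8 CPM. Not all other lists were so low in these cells. The sums in STA_Il23mc and STA were 1791 and 1628 CPM for 8 chondrocyte markers and 1621 and 2149 CPM for 6 tenocyte markers. They were 579.9 and 639.9 CPM for 5 osteoclast markers and 144 and 143 CPM for 7 ILC2 markers.

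The make-up of the fibroblasts differed mainly in the Il6+ annotation. Of the 984 STA_Il23mc cells of all annotations, 23.1% (20.5 to 25.8) were Il6+, against 13.9% (11.8 to 16.2) of the 985 STA cells, a difference of 9.16 percentage points (95% counting interval 5.68 to 12.6). Mmp3+ cells made up 64.4% of STA_Il23mc and 66.5% of STA cells, a difference of -2.07 points whose interval (-6.33 to 2.20) includes 0. Pi16+ cells were 5.59% of STA_Il23mc and 8.12% of STA cells (-2.53 points, -4.85 to -0.232). Lining cells were 1.73% (17 cells) in STA_Il23mc and 5.48% (54 cells) in STA. The Il6+ difference was 10.9 points in cells of the Xist class (22.4% of STA_Il23mc and 11.5% of STA cells) and 5.04 points in those of the Y class (18.8% and 13.7%, interval -0.614 to 11.1). The Pi16+ difference was 0.390 points in the Y class (-3.56 to 4.85). In experiment 2, Il6+ cells were 27.9% of severe and 20.7% of mild STA cells, so hashtags with no minicircle also lay apart. Cells of 1 condition entered through 1 sort and 1 hashtag, and the part of either in these shares was not tested.

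**Figure D1:**
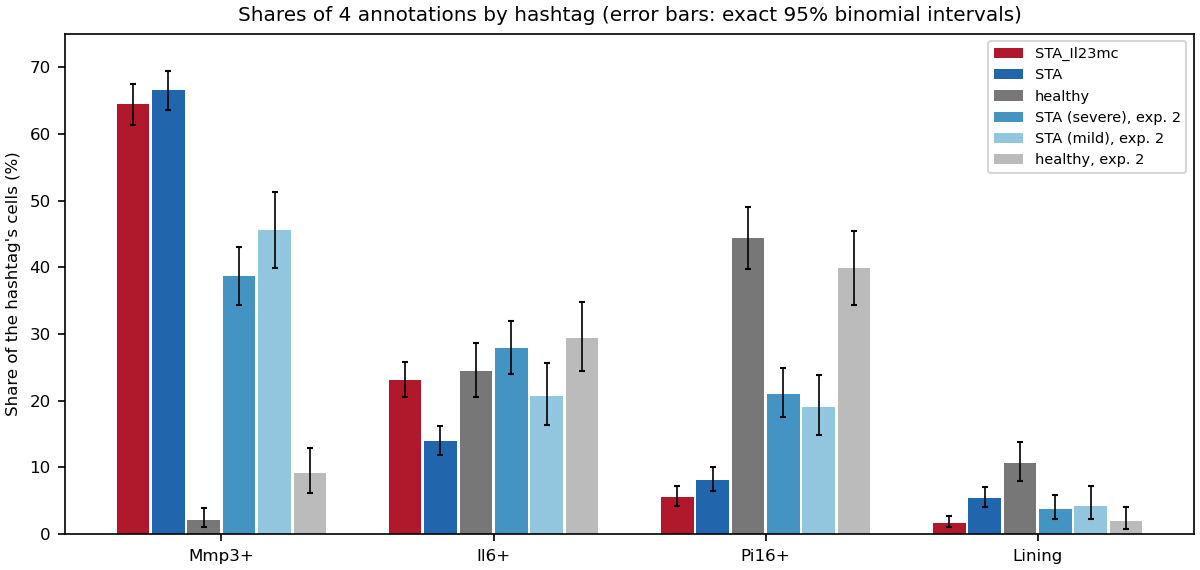
Share of each hashtag's cells (percent of all its cells in the authors' table) in 4 annotations, for the 6 fibroblast hashtags of both experiments; bars are shares and lines exact 95% binomial intervals. Il6+ cells are 23.1% of STA_Il23mc and 13.9% of STA cells, and Mmp3+ cells are 64.4% and 66.5% of them.

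Across all genes the STA_Il23mc and STA cells of 1 annotation were alike for most genes. Genes were compared where 1 of the 2 hashtags had at least 50 UMIs, so a rare gene enters only when it is high in one of them, and counts over a list of genes are descriptions. In Mmp3+ cells 10271 genes met this, and 201 of them (1.96%) were past 2-fold higher and 232 (2.26%) past 2-fold lower in STA_Il23mc. In Il6+ cells 121 of 5021 genes (2.41%) were past 2-fold higher and 81 (1.61%) lower, and in Pi16+ cells 54 of 2569 (2.10%) higher and 85 (3.31%) lower. The median log2 ratio of all genes was -0.26 in Mmp3+, -0.11 in Il6+ and -0.19 in Pi16+ cells. Scaling by TMM factors moved every ratio up by 0.23, 0.16 and 0.06, and gave 292 genes higher and 108 lower in Mmp3+ and 174 and 46 in Il6+ cells. The median size of the log2 ratio was 0.31, 0.29 and 0.31 in the 3 annotations, against 0.17, 0.21 and 0.21 between the severe and mild STA hashtags of experiment 2. The sizes were not centred, so those of experiment 1 include the offset of its medians. The median log2 ratio between the severe and mild hashtags was 0.04, 0.04 and 0.00. Those 2 hashtags differed past 2-fold at 78 genes higher (0.969%) and 66 lower (0.820%) of 8050 in Mmp3+ cells, 83 (2.07%) and 22 (0.549%) of 4007 in Il6+ cells, and 55 (1.53%) and 40 (1.11%) of 3591 in Pi16+ cells.

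**Figure D2:**
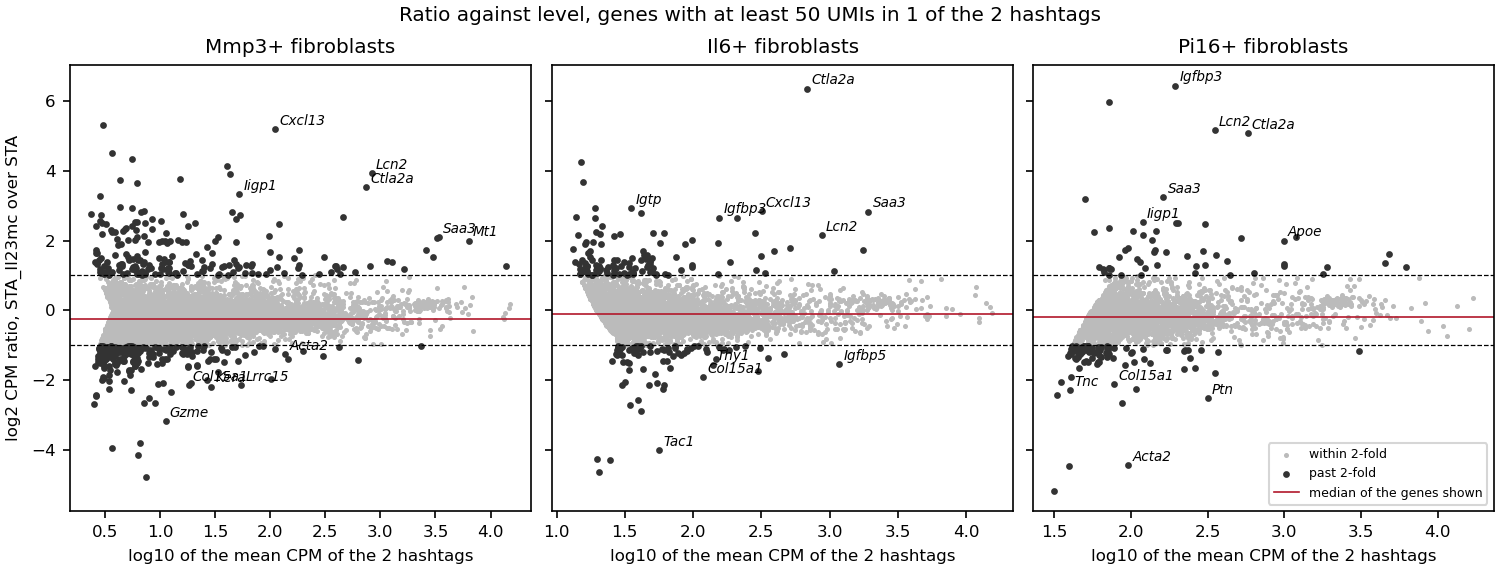
Log2 ratio of STA_Il23mc over STA (y axis) against mean level (CPM, log axis) of every gene with at least 50 UMIs in 1 hashtag, 1 panel for each annotation; dashed lines mark 2-fold and the red line the median of all genes. Genes at 0 in 1 hashtag are not drawn. Lcn2, Saa3 and Ctla2a lie far above the upper dashed line in all 3 panels, while the medians lie at -0.26, -0.11 and -0.19.

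Of the 2561 genes compared in all 3 annotations, 13 were past 2-fold higher in STA_Il23mc in each of them: Lcn2, Saa3, Serpina3n, Serpina3m, Cp, Iigp1, Ifi207, Ctla2a, Plac8, Tmem176a, Tmem176b, Dpep1 and Galnt15. Lcn2, Saa3, Serpina3n and Cp belong to the acute-phase list, and Iigp1 to that of interferon-inducible GTPases. In each annotation, 10 of the 13 were higher in STA_Il23mc than in all 5 other fibroblast hashtags. Of these 5, STA was fixed by the choice of genes. The exceptions were Ctla2a, Galnt15 and Ifi207. All 13 were above 0 in both the Xist and the Y class in every annotation, and 8 were past 2-fold in both classes throughout. The classes are parts of the sums by which the genes were chosen, so a shared direction is partly built in. All 13 remained past 2-fold without the highest cell of each hashtag. TMM factors moved every ratio up, so they could not take out a higher gene and are no check of these 13.

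Lcn2 encodes lipocalin-2, a secreted protein that withholds iron from bacteria by binding their siderophores; it lies at chr2:32384637-32387739 (GRCm38). In Mmp3+ cells it stood at 1569 CPM in STA_Il23mc, against 103 CPM in STA, 573 in the 10 healthy cells, and 91.9, 103 and 22.4 CPM in the severe, mild and healthy hashtags of experiment 2. The STA_Il23mc hashtag was therefore the highest of the 6, 15.2 times STA (log2 ratio 3.93, interval 3.85 to 4.01). In Il6+ cells it stood at 1428 CPM in STA_Il23mc, against 321 in STA, 99.1 in healthy and 92.4, 81.2 and 48.9 CPM in severe, mild and healthy cells of experiment 2 (log2 ratio 2.15, 2.01 to 2.30). In Pi16+ cells it stood at 684 CPM in STA_Il23mc, against 18.9 in STA, 30.4 in healthy and 8.53, 3.07 and 2.11 CPM in severe, mild and healthy cells of experiment 2 (5.17, 4.48 to 5.97). No other hashtag reached the STA_Il23mc level in any of the 3 annotations. Within the Xist class Mmp3+ cells held 1478 CPM in STA_Il23mc and 75.2 CPM in STA, and within the Y class 1749 CPM in STA_Il23mc and 107 CPM in STA. In Il6+ cells the Xist class held 1271 CPM in STA_Il23mc and 796 CPM in STA and the Y class 1507 CPM in STA_Il23mc and 142 CPM in STA. One STA Il6+ cell held 49.3% of the STA UMIs of Lcn2 (211 of 428). The smaller difference in the Xist class may rest on that cell, and the class values were not taken without it. The Il6+ log2 ratio without the highest cells was 3.06.

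Lcn2 was also in more cells, not only at a higher level in a few. With each cell thinned to 5000 UMIs, 66.9% of STA_Il23mc and 12% of STA Mmp3+ cells had an Lcn2 UMI (79.8% and 26.9% unthinned). The shares were 66.8% in STA_Il23mc and 27.0% in STA Il6+ cells, and 44.0% and 7.58% in Pi16+ cells. Among osteoblasts, which had little of the gene under both hashtags (35.7 CPM in STA_Il23mc and 12.5 CPM in STA), the share was 6.67% in STA_Il23mc (1 of 15 cells) and 10.7% in STA (3 of 28). Chondrocytes were unlike them, with 2964 CPM in STA_Il23mc and 29.5 CPM in STA, and with an Lcn2 UMI in 7 of 12 STA_Il23mc cells (27.7% to 84.8%) and 0 of 11 STA cells (0% to 28.5%); 1 of the STA_Il23mc chondrocytes held 44.2% of their UMIs. The part of free RNA, which the 3 conditions of 1 well have in common, was not tested. The 5% of Mmp3+ cells with the most Lcn2 held 39.6% of its UMIs in STA_Il23mc and 79.2% in STA. Neutrophils also make lipocalin-2. Of the 8 neutrophil markers examined, Lcn2 among them, 3 were at 0 in both hashtags of Mmp3+ cells, and of the 3 with enough UMIs 2 were past 2-fold higher in STA_Il23mc, Lcn2 and Camp, which encodes an antimicrobial peptide (10.3 CPM in STA_Il23mc and 3.91 CPM in STA, 1.39). S100a8 was at 6.17 CPM in STA_Il23mc and 5.48 CPM in STA, and the part of neutrophils in the Lcn2 values was not tested.

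Saa3, an acute-phase apolipoprotein made outside the liver, stood in Mmp3+ cells at 5476 CPM in STA_Il23mc, against 1278 in STA, 106 in healthy and 282, 693 and 181 CPM in the severe, mild and healthy hashtags of experiment 2 (2.10, 2.08 to 2.12). In Il6+ cells it stood at 3369.6 CPM in STA_Il23mc and 475 CPM in STA (2.83, 2.71 to 2.94), and in Pi16+ cells at 295 CPM in STA_Il23mc and 31.2 CPM in STA (3.24, 2.66 to 3.88). Thinned to 5000 UMIs, 62.9% of STA_Il23mc (interval 59.0 to 66.7) and 27.7% of STA Mmp3+ cells (24.3 to 31.3) had a Saa3 UMI. Of osteoblasts and chondrocytes together, which had little Saa3, it was 7.41% in STA_Il23mc (2 of 27 cells, 0.910 to 24.3) and 12.8% in STA (5 of 39, 4.30 to 27.4). The osteoblasts and chondrocytes were few, and the intervals cover counting of cells within 1 hashtag only. No contrast between the hashtags is drawn from them.

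**Figure D3:**
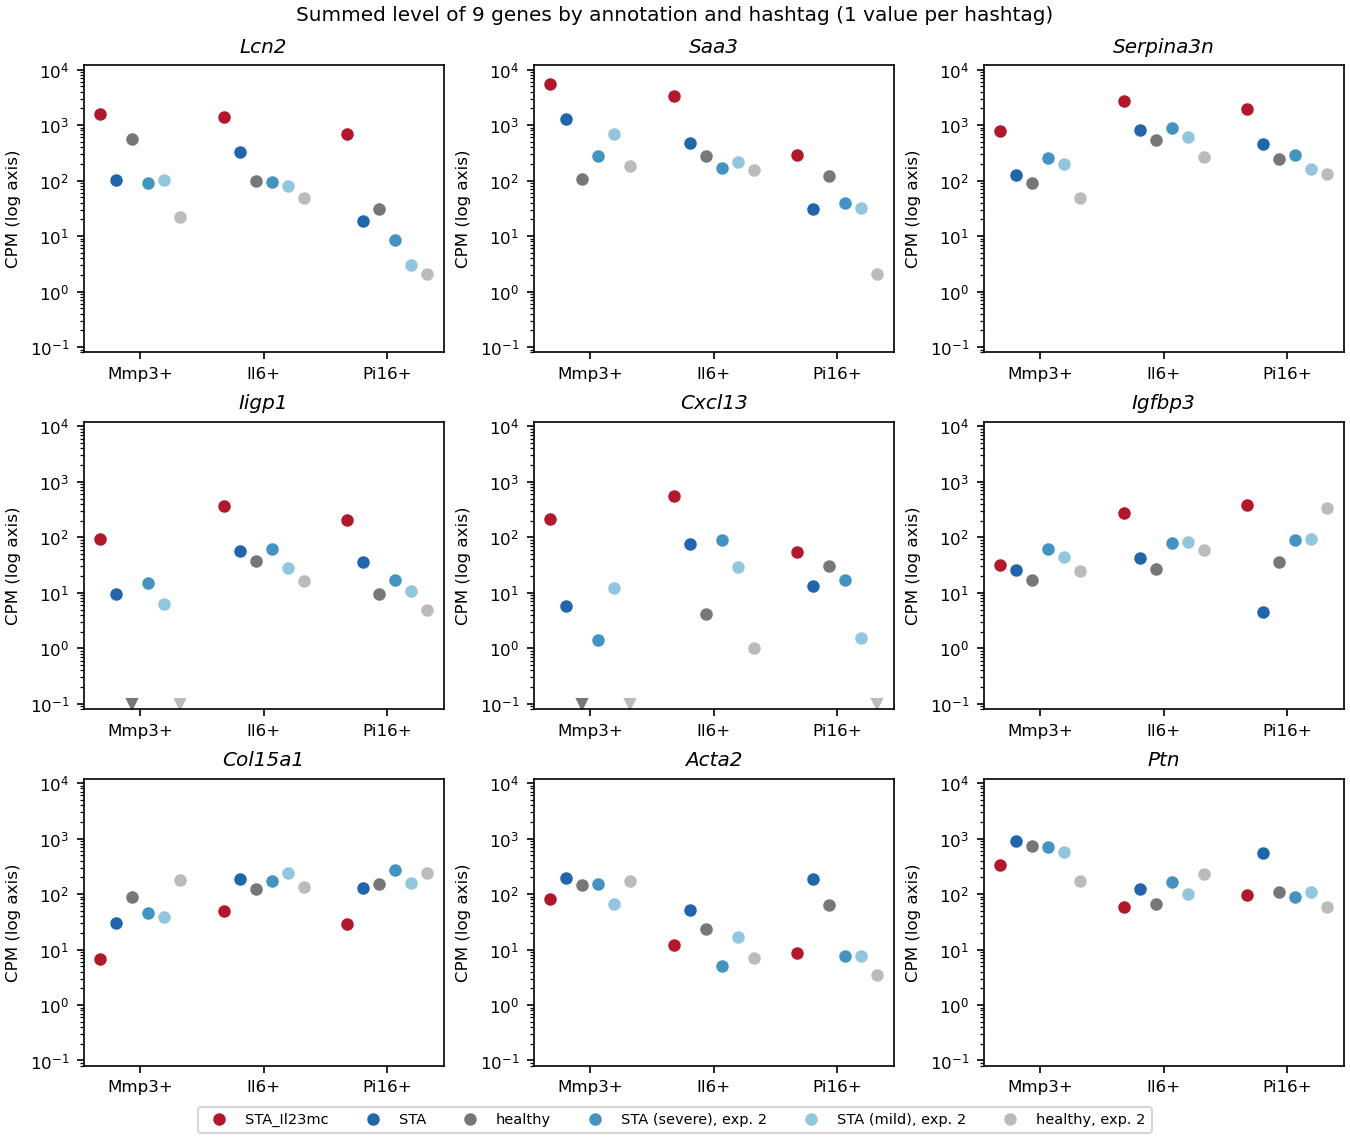
Levels (CPM, log axis) of 9 genes, 1 panel for each gene. Annotations lie along the x axis, and each of the 6 fibroblast hashtags has 1 colour. Triangles at the bottom mark levels of 0. The STA_Il23mc points of Lcn2, Saa3 and Serpina3n lie above those of all other hashtags in the 3 annotations.

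The acute-phase list stood out, though the lists were chosen with earlier results of these data known. Of its 14 members 10 reached the minimum in Mmp3+ cells and all 10 were past 2-fold higher in STA_Il23mc. In Il6+ cells it was 6 of 9, and in Pi16+ cells 6 of 7 with 1 lower (5 and 1 without the highest cells). Of all genes, 1.96%, 2.41% and 2.10% were past 2-fold higher in the 3 annotations. Some members reached the minimum only through STA_Il23mc, such as Lcn2 in Pi16+ cells (398 UMIs in STA_Il23mc and 17 in STA) and Saa2 in Il6+ cells (92 and 9). Median log2 ratios of the list were 2.08, 1.73 and 2.09, against -0.26, -0.11 and -0.19 for all genes. Experiment 2 set the severe against the mild hashtag. Of 10 members in Mmp3+ cells none was past 2-fold higher and 5 were lower there (median -0.86). In Il6+ cells 1 of 7 was higher and none lower (0.13), and in Pi16+ cells none of 4 was past 2-fold (0.31). For STA_Il23mc over STA the medians were 2.03, 1.51 and 2.38 within the Xist class, and 2.36, 1.45 and 2.08 within the Y class.

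Serpina3n, an inhibitor of serine proteases that leukocytes release, stood in Mmp3+ cells at 788 CPM in STA_Il23mc, against 124 in STA, 89.1 in healthy and 259, 197 and 49.2 CPM in severe, mild and healthy cells of experiment 2 (2.67, 2.59 to 2.74). It stood at 2720.1 CPM in STA_Il23mc and 819.7 CPM in STA Il6+ cells (1.73), and at 1943 CPM in STA_Il23mc and 458 CPM in STA Pi16+ cells (2.09). Both classes showed it alike in Pi16+ cells, with 2079.8 CPM in STA_Il23mc and 368 CPM in STA of the Xist class and 1537 CPM in STA_Il23mc and 439 CPM in STA of the Y class. Its neighbour Serpina3m stood at 76.5 CPM in STA_Il23mc and 4.36 CPM in STA Mmp3+ cells (4.13, 3.75 to 4.54). The genes of this cluster are close copies, so that reads may have been split among them.

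Haptoglobin (Hp), which binds free haemoglobin, stood in Mmp3+ cells at 5293 CPM in STA_Il23mc, against 1271 in STA, 2004 in healthy and 379.9, 1064 and 409 CPM in severe, mild and healthy cells of experiment 2 (2.06, 2.03 to 2.08). In Pi16+ cells it was at 103 CPM in STA_Il23mc and 45.6 CPM in STA (1.18), which came to 0.45 without the highest cells, and it was not past 2-fold in Il6+ cells (518 CPM in STA_Il23mc and 299 CPM in STA, 0.79). Ceruloplasmin (Cp), a copper carrier that oxidises iron, stood at 104 CPM in STA_Il23mc and 50.3 CPM in STA Mmp3+ cells (1.05), at 469 CPM in STA_Il23mc and 158 CPM in STA Il6+ cells (1.57), and at 335 CPM in STA_Il23mc and 59.0 CPM in STA Pi16+ cells (2.51). Saa1 stood at 80.9 CPM in STA_Il23mc and 5.41 CPM in STA Mmp3+ cells (3.9), but 1 STA_Il23mc cell held 52.4% of its UMIs, and the log2 ratio without the highest cells was 3.00. Saa1 and Saa2 are close copies whose reads may also have been split. The pentraxin Ptx3, which recognises microbes, was the member that went both ways, at 573 and 280.4 CPM in STA_Il23mc and STA Mmp3+ cells (1.03), 1062 CPM in STA_Il23mc and 1075 CPM in STA Il6+ cells (-0.02), and 136 CPM in STA_Il23mc and 347 CPM in STA Pi16+ cells (-1.36).

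Target genes of IL-17 followed only in part. In Mmp3+ cells 6 of 19 compared were past 2-fold higher in STA_Il23mc and none lower (median 0.79), in Il6+ cells 3 of 18 (-0.02), and in Pi16+ cells 4 of 14 (0.52). Without the highest cells the Pi16+ count was 3 higher and 2 lower (0.10). With TMM factors 12, 3 and 4 were higher. Besides Lcn2 and Saa3, the Mmp3+ genes were Csf3, Mmp3, Il6 and Steap4. Csf3, which encodes G-CSF, the growth factor of neutrophils, stood at 91.5 CPM in STA_Il23mc, against 13.7 in STA, 0 in healthy and 6.48, 15 and 2.24 CPM in severe, mild and healthy cells of experiment 2 (2.74, 2.52 to 2.97). Mmp3 stood in Mmp3+ cells at 4455 CPM in STA_Il23mc, against 1552 in STA, 1759 in healthy and 1179.9, 1397 and 832 CPM in severe, mild and healthy cells of experiment 2 (1.52, 1.5 to 1.54). STA_Il23mc was the highest of the 6 hashtags for both. Il6 stood at 551 CPM in STA_Il23mc and 227 CPM in STA (1.28, 1.22 to 1.34), but the mild STA hashtag had 576 CPM and the healthy one of experiment 2 667 CPM. In Il6+ cells Il6 was at 1346 CPM in STA_Il23mc and 1329 CPM in STA (0.02), and in Pi16+ cells at 119 CPM in STA_Il23mc and 205 CPM in STA (-0.79).

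The chemokine genes among these targets were closer together. Cxcl1, which draws neutrophils, stood in Mmp3+ cells at 3964 CPM in STA_Il23mc and 2538 CPM in STA (0.64), and Cxcl5, of the same group, at 1478 CPM in STA_Il23mc and 1101 CPM in STA (0.42). Ccl2, which draws monocytes, stood at 1358 CPM in STA_Il23mc and 922 CPM in STA (0.56), and Ccl20, which draws CCR6-bearing lymphocytes, at 90.8 CPM in STA_Il23mc and 49.7 CPM in STA (0.87). None of these was past 2-fold (Ccl20 came to 1.01 without the highest cells), and Mmp13, a collagenase, was at 1153 CPM in STA_Il23mc and 1648 CPM in STA (-0.52). In Pi16+ cells Cxcl5 was past 2-fold higher, at 211 CPM in STA_Il23mc, against 85.7 in STA, 19.6 in healthy and 6.82, 24.6 and 5.64 CPM in severe, mild and healthy cells of experiment 2 (1.30, 0.88 to 1.73). In STA_Il23mc 1 cell held 82.1% of these UMIs, and without the highest cell of each hashtag the order turned round, to 37.8 CPM in STA_Il23mc and 64.6 CPM in STA (-0.77). The Y class had 26.3 CPM in STA_Il23mc and 87.1 CPM in STA. Il17ra was at 56.1 and 43.8 CPM in STA_Il23mc and STA Mmp3+ cells (0.36), 119 CPM in STA_Il23mc and 148 CPM in STA Il6+ cells (-0.31), and 65.3 CPM in STA_Il23mc and 55.7 CPM in STA Pi16+ cells (0.23). Of the list of IL-17 receptors and their adaptors none of 12, 9 and 5 genes compared was past 2-fold, which is near the low share of all genes. The genes of IL-23 itself were at or near 0: Il23a had 1, 2 and 0 UMIs in the 3 annotations of STA_Il23mc cells and 0 in STA cells, and Il12b had 0.

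Interferon-inducible GTPases, which guard cells against intracellular microbes, were higher in Mmp3+ and Il6+ cells. In Mmp3+ cells 7 of 10 compared were past 2-fold higher in STA_Il23mc (median 1.30) and in Il6+ cells 7 of 10 (1.36). None was lower in either, and in Pi16+ cells only Iigp1 had enough UMIs. Of all genes compared, 1.96% were past 2-fold higher in Mmp3+ and 2.41% in Il6+ cells. Some members reached the minimum only through STA_Il23mc, such as Igtp in Il6+ cells (158 UMIs in STA_Il23mc and 11 in STA). The counts are therefore descriptions. The family was not even in experiment 2: of 4 members compared there, 2 were past 2-fold higher in the severe than in the mild hashtag in Mmp3+ cells (median 0.78) and 2 of 4 in Il6+ cells (0.68). Iigp1 stood in Mmp3+ cells at 94.7 CPM in STA_Il23mc, against 9.39 in STA, 0 in healthy and 15, 6.23 and 0 CPM in severe, mild and healthy cells of experiment 2 (3.33, 3.07 to 3.61). In Il6+ cells it stood at 364 CPM in STA_Il23mc, against 57.7 in STA, 36.7 in healthy and 60.6, 27.5 and 16.3 CPM in severe, mild and healthy cells of experiment 2 (2.65, 2.32 to 3.01). In Pi16+ cells the values were 204 CPM in STA_Il23mc, against 35.6 in STA, 9.49 in healthy and 17.1, 10.8 and 4.93 CPM in severe, mild and healthy cells of experiment 2 (2.52, 1.95 to 3.13). STA_Il23mc was the highest of the 6 hashtags in every annotation. In the Y class of Mmp3+ cells Iigp1 stood at 181 CPM in STA_Il23mc and 9.47 CPM in STA, and in the Xist class at 52.8 CPM in STA_Il23mc and 11.2 CPM in STA.

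Igtp, whose promoter is printed above, stood in Il6+ cells at 62.4 CPM in STA_Il23mc, against 8.25 in STA, 2.72 in healthy and 5.62, 4.13 and 3.06 CPM in severe, mild and healthy cells of experiment 2 (2.92, 2.04 to 3.95). In Mmp3+ cells it stood at 15.8 CPM in STA_Il23mc and 6.09 CPM in STA (1.38). Gbp2, a guanylate-binding protein, stood in Mmp3+ cells at 39.6 CPM in STA_Il23mc and 17.0 CPM in STA (1.22) and in Il6+ cells at 149 CPM in STA_Il23mc and 94.5 CPM in STA (0.66). The list's median was larger in the Y class of Mmp3+ cells (1.79) than in the Xist class (0.99), and nearly equal in Il6+ cells (1.17 in the Y class and 1.12 in the Xist class). Irf1, a transcription factor that interferon induces, was at 46.3 CPM in STA_Il23mc and 46.8 CPM in STA Mmp3+ cells (-0.02) and at 141 CPM in STA_Il23mc and 99.0 CPM in STA Il6+ cells (0.51).

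Of the interferon-gamma chemokines, which draw CXCR3-bearing T cells, Cxcl9 stood in Mmp3+ cells at 78.2 CPM in STA_Il23mc and 11.0 CPM in STA (2.82) and Cxcl10 at 138 CPM in STA_Il23mc and 61.8 CPM in STA (1.16). One STA cell held 58.5% of the STA UMIs of Cxcl9, and without the highest cells the log2 ratios were 3.86 for Cxcl9 and 1.80 for Cxcl10. MHC class I genes were higher by less, with 2 of 17, 2 of 15 and 1 of 8 past 2-fold in Mmp3+, Il6+ and Pi16+ cells (medians 0.35, 0.34 and 0.26); in Mmp3+ cells the median was 0.84 in the Y class and 0.00 in the Xist class. H2-K1, a classical class I heavy chain, stood in Mmp3+ cells at 417 CPM in STA_Il23mc and 270.1 CPM in STA (0.63). The type I interferon list lay on different sides in the annotations. In Mmp3+ cells 7 of 21 members were past 2-fold lower in STA_Il23mc and none higher (median -0.42; 5 lower with TMM factors). In Il6+ cells 2 of 12 were higher and 1 lower (median 0.47, with 9 of the 12 above 0); with TMM factors 3 were higher and none lower, and without the highest cells 4 higher and 1 lower. Rsad2, the antiviral protein viperin, stood in Mmp3+ cells at 0.669 CPM in STA_Il23mc and 11.8 CPM in STA, and the STA level came from the Y class (20.9 CPM) more than the Xist class (2.08 CPM); without the highest cells it was at 0.446 CPM in STA_Il23mc and 1.43 CPM in STA (-1.68). Isg15, a ubiquitin-like protein, stood at 9.0 CPM in STA_Il23mc and 27.1 CPM in STA, with 42.0 CPM in STA cells of the Y class and 11.6 CPM in those of the Xist class.

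Ctla2a, which encodes a cysteine protease inhibitor, had the largest ratio in Il6+ cells. It stood there at 1349 CPM in STA_Il23mc and 16.5 CPM in STA (81.8 times, log2 ratio 6.35, 5.75 to 7.03), at 1123 CPM in STA_Il23mc and 33.4 CPM in STA Pi16+ cells (5.07), and at 1363 CPM in STA_Il23mc and 117 CPM in STA Mmp3+ cells (3.54). Its UMIs were uneven between cells: 1 cell held 23.7% of them in STA_Il23mc Il6+ cells and 44.3% in STA_Il23mc Pi16+ cells. The 10 healthy Mmp3+ cells of the same well had 1459 CPM, from 1 cell. Cxcl13, a chemokine that draws B cells, stood in Mmp3+ cells at 214 CPM in STA_Il23mc, against 5.86 in STA, 0 in healthy and 1.42, 12.2 and 0 CPM in severe, mild and healthy cells of experiment 2 (5.19, 4.86 to 5.53), and in Il6+ cells at 557 and 77.2 CPM in STA_Il23mc and STA (2.85). In the Xist class of Mmp3+ cells it was at 251 CPM in STA_Il23mc and 12.3 CPM in STA and in the Y class at 68.1 CPM in STA_Il23mc and 2.30 CPM in STA. Plac8, of the cysteine-rich PLAC8 family, stood at 204 and 36.7 CPM in STA_Il23mc and STA Mmp3+ cells (2.47), 464 CPM in STA_Il23mc and 100.5 CPM in STA Il6+ cells (2.21) and 222 CPM in STA_Il23mc and 66.8 CPM in STA Pi16+ cells (1.73). The membrane protein gene Tmem176b stood at 557 CPM in STA_Il23mc and 229 CPM in STA Mmp3+ (1.28), 802 CPM in STA_Il23mc and 231 CPM in STA Il6+ (1.80), and 517 CPM in STA_Il23mc and 92.4 CPM in STA Pi16+ cells (2.48).

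Complement genes were higher in Mmp3+ and Pi16+ cells, with 5 of 10 and 2 of 8 past 2-fold and none lower (medians 0.97 and 0.92), and none of 9 past 2-fold in Il6+ cells (0.59). With TMM factors the counts were 7, 2 and 2. C3, the component on which all complement routes meet, stood in Mmp3+ cells at 1832 CPM in STA_Il23mc, against 700.2 in STA, 612 in healthy and 862, 909 and 302 CPM in severe, mild and healthy cells of experiment 2 (1.39, 1.35 to 1.42). It stood at 6553 and 2556 CPM in STA_Il23mc and STA Pi16+ cells (1.36) and at 8568 CPM in STA_Il23mc and 4595 CPM in STA Il6+ cells (0.90). STA_Il23mc was the highest of the 6 hashtags in each annotation.

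All 3 homeostatic chemokines, made by stromal cells without inflammation, were past 2-fold higher in Mmp3+ cells, 1 of 3 in Il6+ and 1 of 2 in Pi16+ cells. Cxcl12, which holds CXCR4-bearing cells in tissue, stood in Mmp3+ cells at 1669 CPM in STA_Il23mc, against 624 in STA, 328 in healthy and 811, 1071 and 662 CPM in severe, mild and healthy cells of experiment 2 (1.42, 1.38 to 1.46). It stood at 2671 and 1137 CPM in STA_Il23mc and STA Pi16+ cells (1.23) and at 4171 CPM in STA_Il23mc and 3032 CPM in STA Il6+ cells (0.46). Metallothioneins, which bind zinc and copper, were past 2-fold higher for all 3 compared in Mmp3+ cells, 1 of 2 in Pi16+ and none of 2 in Il6+ cells. Mt1 stood in Mmp3+ cells at 10115 CPM in STA_Il23mc, against 2534 in STA, 2817 in healthy and 3146, 4502 and 5215 CPM in severe, mild and healthy cells of experiment 2 (2.00, 1.98 to 2.01). In Il6+ cells it was at 14459 CPM in STA_Il23mc and 9181 CPM in STA (0.66), and 3 of the other hashtags there were higher than STA_Il23mc.

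The 6 genes past 2-fold lower in STA_Il23mc in all 3 annotations were Col15a1, Ckb, Acta2, Nrep, Ifi27l2a and Ptn. With TMM factors 4 of the 6 stayed past 2-fold in all 3, 4 were below 0 in both classes throughout, and 1 was past 2-fold in both classes throughout. Col15a1 encodes a collagen of the zone next to basement membranes. It stood in Mmp3+ cells at 6.69 CPM in STA_Il23mc, against 29.5 in STA, 89.1 in healthy and 45.0, 38.6 and 179 CPM in severe, mild and healthy cells of experiment 2 (-2.14, -2.49 to -1.81). In Il6+ cells it stood at 49.7 CPM in STA_Il23mc, against 186 in STA, 122 in healthy and 169, 244 and 132 CPM in severe, mild and healthy cells of experiment 2 (-1.90, -2.22 to -1.59). In Pi16+ cells it stood at 29.2 CPM in STA_Il23mc, against 126 in STA, 152 in healthy and 277, 155 and 241 CPM in severe, mild and healthy cells of experiment 2 (-2.11, -2.94 to -1.36). Col15a1 and the creatine kinase gene Ckb were the 2 of these 6 that were lowest in STA_Il23mc among the 6 hashtags in every annotation. Their order against STA was fixed by the choice of genes. The growth factor pleiotrophin (Ptn) stood in Mmp3+ cells at 337 and 910.1 CPM in STA_Il23mc and STA (-1.43), in Il6+ cells at 57.3 CPM in STA_Il23mc and 123 CPM in STA (-1.10) and in Pi16+ cells at 94.5 CPM in STA_Il23mc and 539.9 CPM in STA (-2.51), but in Pi16+ cells the other 4 hashtags had 57.8 to 108 CPM.

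Smooth-muscle actin (Acta2) belongs to the contractile genes of myofibroblasts and mural cells. Of that list 3 of 9, 1 of 6 and 2 of 6 were past 2-fold lower in Mmp3+, Il6+ and Pi16+ cells, and none higher (medians -0.77, -0.30 and -0.73). Acta2 stood in Mmp3+ cells at 80.6 CPM in STA_Il23mc and 192 CPM in STA (-1.25), and in Pi16+ cells at 8.59 CPM in STA_Il23mc and 184 CPM in STA (-4.42). Of the Pi16+ cells, 1 STA cell held 81.8% of the STA UMIs, and the log2 ratio without the highest cells was -2.28. Tagln was alike there, with 89.7% in 1 cell. The summed level of 8 mural markers, Acta2 among them, was 114 CPM in STA_Il23mc and 223 CPM in STA Mmp3+ cells and 60.1 CPM in STA_Il23mc and 236 CPM in STA Pi16+ cells; the part of mural cells in these values was not tested.

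Among matrix genes the abundant fibrillar collagens lay close together in Mmp3+ and Il6+ cells and lower in STA_Il23mc in Pi16+ cells, short of 2-fold. Col1a1, the main collagen of connective tissue, was at 12231 CPM in STA_Il23mc and 13855 CPM in STA Mmp3+ cells (-0.18), 8739 CPM in STA_Il23mc and 9316 CPM in STA Il6+ cells (-0.09) and 6951 CPM in STA_Il23mc and 10418 CPM in STA Pi16+ cells (-0.58). Of 17 collagens compared in each annotation, 2 were past 2-fold higher and 3 lower in Mmp3+ cells, 4 lower in Il6+ and 1 lower in Pi16+ cells (medians -0.32, -0.33 and -0.51). The higher ones, Col4a1 and Col4a2, are chains of basement membrane; Col4a1 was at 374 CPM in STA_Il23mc and 181 CPM in STA (1.05). The summed level of the 17 in Pi16+ cells was 34882 CPM in STA_Il23mc and 51376 CPM in STA. The collagen medians went apart by class, at 0.16 in the Xist and -0.71 in the Y class of Il6+ cells, and 0.05 and -0.85 in Pi16+ cells. In Mmp3+ cells 3 of 6 tenocyte markers were past 2-fold lower, among them tenomodulin (Tnmd), at 80.8 CPM in STA_Il23mc and 211 CPM in STA (-1.38). Kera, a small leucine-rich proteoglycan, was at 10.6 CPM in STA_Il23mc and 47.7 CPM in STA (-2.18, -2.45 to -1.91) and Lrrc15, a membrane protein of activated fibroblasts, at 20.1 CPM in STA_Il23mc and 89.1 CPM in STA (-2.15, -2.35 to -1.96). Both were lowest in STA_Il23mc among the 6 hashtags. Of 17 cell cycle genes compared in Mmp3+ cells 3 were past 2-fold lower and none higher, and none with TMM factors.

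Some genes stood out in 1 or 2 annotations. In Il6+ cells Igfbp5, which binds insulin-like growth factors, stood at 603 CPM in STA_Il23mc, against 1744 in STA, 1479 in healthy and 1234, 1375 and 1004 CPM in severe, mild and healthy cells of experiment 2 (-1.53, -1.63 to -1.44). In Pi16+ cells it was at 1898 CPM in STA_Il23mc, against 4228 in STA and 2776 to 3517 CPM in the other 4 (-1.16). It was the lowest of the 6 hashtags in both. Its relative Igfbp3 went the other way, at 269 and 42.7 CPM in STA_Il23mc and STA Il6+ cells (2.66, 2.26 to 3.07) and 386 CPM in STA_Il23mc and 4.45 CPM in STA Pi16+ cells (6.44, 5.06 to 8.33), but healthy Pi16+ cells of experiment 2 had 339 CPM. Timp3, an inhibitor of metalloproteinases bound to matrix, stood in Il6+ cells at 137 CPM in STA_Il23mc, against 459 in STA and 395 to 466 CPM in the other 4 (-1.74, -1.94 to -1.55). Thy1, the surface protein CD90 of sublining fibroblasts, stood in Il6+ cells at 70.7 CPM in STA_Il23mc and 207 CPM in STA (-1.55, -1.83 to -1.27), lowest of the 6. The higher and lower genes with the largest ratios in Il6+ cells differed in how they were spread: none of the 10 higher named ones had over 50% of its STA_Il23mc UMIs in 1 cell, while 8 of the 10 lower ones had over 50% of their STA UMIs in 1 cell, such as Krt2 (95.2%), Igfbp2 (88.5%) and Tac1 (74.6%). Without the highest cells 7 of those 10 stayed past 2-fold, and Krt2 came to -0.19.

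In Pi16+ cells genes of lipid handling were higher, with 4 of 7 compared past 2-fold (median 1.61), against 1 of 13 in Mmp3+ cells and 0 of 12, with 2 lower, in Il6+ cells (median -0.01). That order in Il6+ cells rests on the scaling and on single cells: 2 were higher and 1 lower with TMM factors, and 1 higher and none lower without the highest cells. Apod, a lipocalin that carries lipids, stood in Pi16+ cells at 7236 CPM in STA_Il23mc and 2364 CPM in STA (1.61), and lipoprotein lipase (Lpl) at 849 CPM in STA_Il23mc and 201 CPM in STA (2.07). Apoe was at 1584 CPM in STA_Il23mc and 396 CPM in STA (2.00, 1.82 to 2.18), but the mild STA hashtag had 1513 CPM. Fabp4, a fatty acid carrier, was at 141 CPM in STA_Il23mc and 2.23 CPM in STA (5.98), with 42.7% of its STA_Il23mc UMIs in 1 cell, but healthy Pi16+ cells of the same well had 111 CPM. In experiment 2 Fabp4 was at 4.26, 4.61 and 4.23 CPM in severe, mild and healthy Pi16+ cells. Of the adipocyte markers, 4 of the 5 examined, Fabp4 not among them, were at 0 in both STA_Il23mc and STA. The 5 summed to 5.15 CPM in STA_Il23mc, 2.23 CPM in STA and 198 CPM in healthy Pi16+ cells of experiment 1. The part of adipocytes in the Fabp4 values was not tested. Among the lower genes, Inhba, which encodes the activin A subunit, stood at 24.0 CPM in STA_Il23mc, against 151 in STA, 93.0 in healthy and 39.2, 40.0 and 51.4 CPM in severe, mild and healthy cells of experiment 2 (-2.65, -3.56 to -1.86). Tenascin C (Tnc), a matrix protein of injured tissue, was at 13.7 CPM in STA_Il23mc and 66.8 CPM in STA (-2.28), and 2 of the other hashtags were lower than STA_Il23mc. The Pi16+ values rest on 55 STA_Il23mc and 80 STA cells.

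Several programs showed few or no members past 2-fold, which is near the share of all genes. That share was 1.96% higher and 2.26% lower in Mmp3+, 2.41% and 1.61% in Il6+, and 2.10% and 3.31% in Pi16+ cells. None of 20 oxidative phosphorylation genes was past 2-fold in any annotation (medians -0.26, -0.42 and -0.20). The same held for 20, 17 and 11 glycolysis and hypoxia genes and for 12 heat shock genes in each. Of 20, 20 and 18 immediate early genes 1 was lower in Mmp3+ cells. For RANKL (Tnfsf11), which drives osteoclasts, Mmp3+ cells had 123 CPM in STA_Il23mc and 60.2 CPM in STA (1.03), and for its decoy osteoprotegerin (Tnfrsf11b) 5.13 CPM in STA_Il23mc and 11.4 CPM in STA (-1.15). Prg4, the lubricant of the lining, was at 7098 CPM in STA_Il23mc and 4424 CPM in STA (0.68). Pdgfra, a receptor found on most fibroblasts, was within 0.42 of equal on the log2 scale in each annotation.

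**Figure D4:**
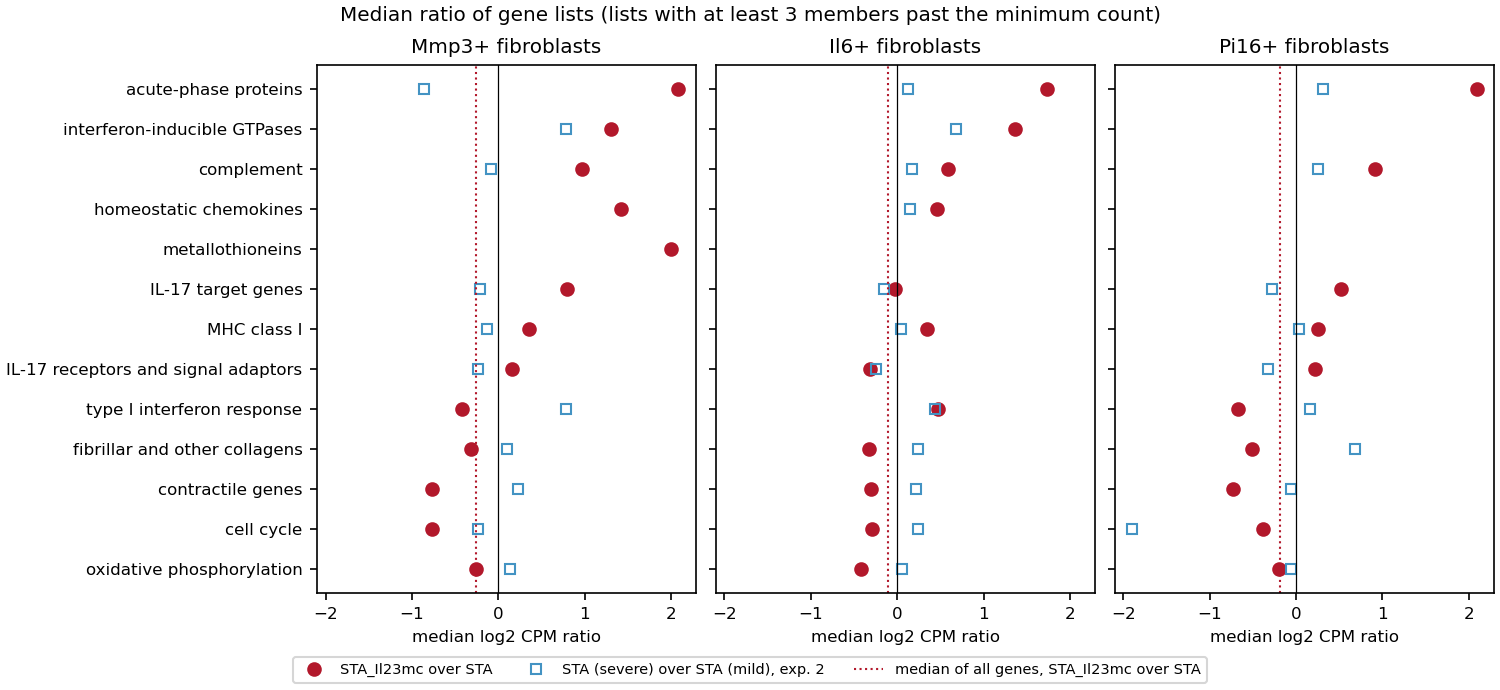
Median log2 ratio of 13 gene lists (x axis) in each annotation; circles are STA_Il23mc over STA in experiment 1, squares severe over mild STA in experiment 2, and dotted lines the median of all genes in experiment 1. Lists with at least 3 members compared are drawn. The acute-phase circles lie at 2.08, 1.73 and 2.09 in Mmp3+, Il6+ and Pi16+ cells, and the squares at -0.86, 0.13 and 0.31.

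How far the results held within each class of cells was described across genes. Of the 201 genes past 2-fold higher in Mmp3+ cells, 187 were above 0 in both classes and 111 past 2-fold in both. Of the 232 lower genes, 223 were below 0 and 89 past 2-fold in both. In Il6+ cells 116 of 121 higher and 71 of 81 lower genes kept their direction in both classes, and in Pi16+ cells 51 of 54 and 77 of 85. Among genes with the minimum count in each class, 65 (0.784%) were past 2-fold higher and 38 (0.458%) lower in both classes of Mmp3+ cells (of 8295), 15 (0.758%) and 20 (1.01%) of Il6+ cells (of 1979), and 18 (1.88%) and 10 (1.04%) of Pi16+ cells (of 959). These classes are parts of the same hashtags and are not replicates of a condition. Genes past 2-fold were chosen by sums that hold both classes, so a kept direction is partly built in.

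**Figure D5:**
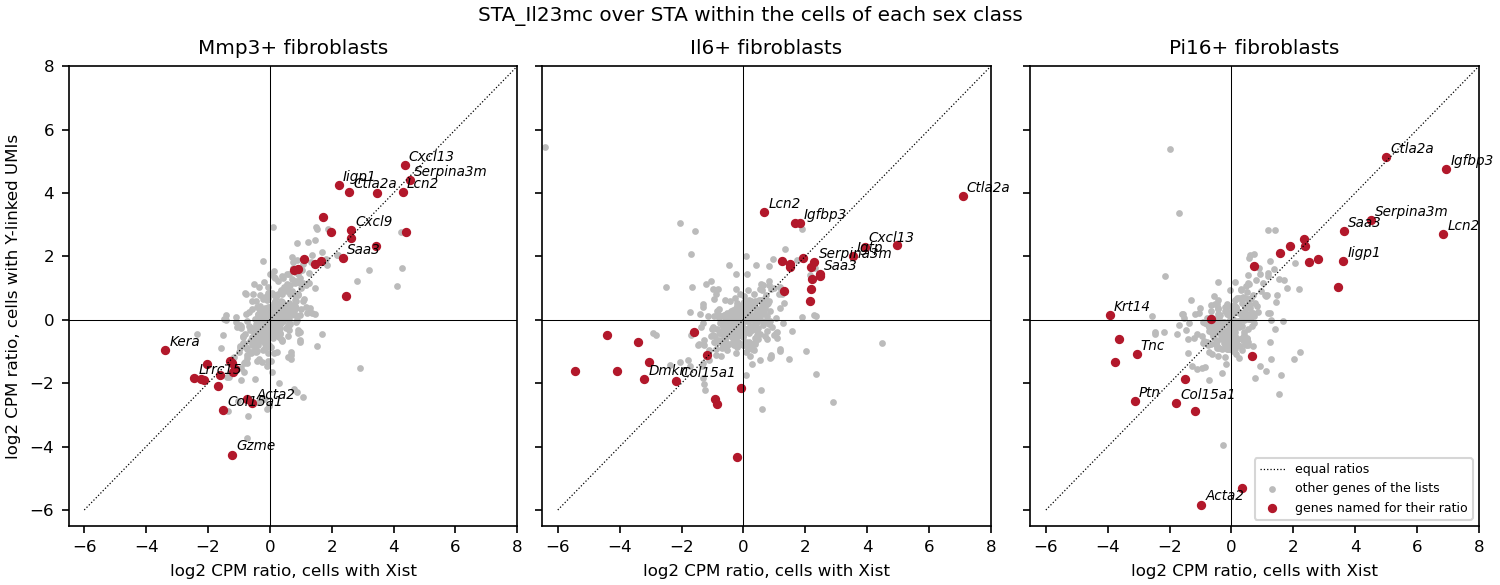
Log2 ratio of STA_Il23mc over STA in cells of the Y class (y axis) against that in cells of the Xist class (x axis), 1 panel for each annotation; red points are genes named for their ratio and grey points other genes of the lists. Ratios with a 0 on either side are not drawn. Most red points lie in the quadrants where both classes have the same sign.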

How the data were processed

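Fibroblasts of 2 wells were analysed from the UMI count matrices that the authors deposited, aligned to mm10. The matrices' headers name Cell Ranger 6.1.2, while version 6.0.6 stands in the submitters' processing notes. The authors' deposited cell table lists, for each kept cell, counts of its UMIs, genes and hashtag UMIs, its mitochondrial fraction, the score of its hashtag margin, the hashtag it was called by and its annotation; how these were made is not given in the sources used here. These calls and annotations were used as deposited, no further filter or doublet call was applied, and 1117 of 1120 cells of experiment 2 were matched to a barcode (3 were not found).

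UMIs were summed per hashtag and annotation and scaled to 1e6 UMIs (CPM). With 1 hashtag a side, log2 CPM ratios carry exact 95% Clopper-Pearson intervals of counting error and no p-value; UMIs cluster in cells and animals, so the true error is larger. Shares of cells carry exact binomial intervals, and their differences one joined from the 2 exact intervals by the square-and-add rule. Genes were compared at 50 UMIs or more in 1 hashtag and called past 2-fold. On simulated counts, drawn with counting error only, the fold changes that were put in were recovered. Clustering of UMIs in cells was not simulated, so this checks the arithmetic and not the calls. TMM factors came from edgeR 4.0.16 in R 4.3.3, used for scaling only; figures were drawn with matplotlib 3.10.9 and all else was computed with scipy 1.17.1, pandas 2.3.3 and numpy 2.4.6 under Python 3.11.15. Cells were also split by Xist against 4 Y-linked genes (Ddx3y, Eif2s3y, Uty and Kdm5d). Shares of cells with a UMI were taken after thinning each cell to 5000 UMIs, leaving out shallower cells.

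The named genes are, in each annotation, the 10 highest and 10 lowest ratios past 2-fold with at least 50 UMIs and 20 CPM, without mitochondrial, ribosomal, sex-linked, immunoglobulin, T cell receptor, haemoglobin and predicted genes; genes past 2-fold one way in all 3 annotations, up to 15 a direction; up to 6 members with the largest ratios of each of 63 gene lists; and 24 fixed genes. Of the genes so named, those the results turn on are given with values and the others in the counts. The members and lists were chosen with earlier results of these data known. Alternatives were other minimum counts, TMM factors, thinned cells, the mean over cells, cells with a clear hashtag, cells free of leukocyte or endothelial UMIs and cells of low mitochondrial share. The split by class and the omission of each gene's highest cell were added after seeing the data. Gene positions and promoters are those of GRCm38.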

Additional observations from a re-analysis of the deposited data

Results flagged for a closer look

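7 genes were past 2-fold in opposite directions in different annotations. All are log2 CPM ratios of STA_Il23mc over STA, and the difference between annotations was not tested. Ccn2, a matricellular protein induced by TGF-beta, was at -1.10 in Il6+ and 1.56 in Pi16+ cells, and kept each direction in both the Xist and the Y class. The pentraxin gene Ptx3 was at 1.03 in Mmp3+ and -1.36 in Pi16+ cells. Pi15, a relative of Pi16, was at 1.30 in Mmp3+ and -1.53 in Pi16+ cells. The other 4 are genes of the epidermis. Krtdap was at 1.07 in Mmp3+ and -1.46 in Il6+ cells. Lgals7 was at 1.34 in Mmp3+, -1.82 in Il6+ and -1.13 in Pi16+ cells. Krt14 was at 1.00 in Il6+ and -2.05 in Pi16+ cells. In Pi16+ cells 1 STA cell held 64.7% of the STA UMIs of Krt14, so that ratio rests largely on 1 cell. Dmkn was at -2.72 in Il6+ and 2.26 in Pi16+ cells, where 1 STA_Il23mc cell held 70.7% of its STA_Il23mc UMIs. The summed level of 11 epidermal genes, chosen after their values were seen, was 198 CPM in STA_Il23mc and 113 CPM in STA Mmp3+ cells, 148 CPM in STA_Il23mc and 545 CPM in STA Il6+ cells, and 417 CPM in STA_Il23mc and 373 CPM in STA Pi16+ cells; the part of RNA or cells of skin in these values was not tested.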

How the results depend on the processing

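The counts of genes past 2-fold moved most with the minimum count. With a minimum of 20 UMIs they were 317 higher and 430 lower in STA_Il23mc Mmp3+ cells, 280 and 214 in Il6+ and 155 and 321 in Pi16+ cells; with no minimum (1 UMI) 2009 and 2454, 2522 and 1846, and 1951 and 2401. With a minimum of 100 UMIs the lower genes numbered 124 in Mmp3+ and 25 in Pi16+ cells, and in Il6+ cells 63 were higher and 41 lower. With cells thinned to 5000 UMIs the counts were 103 higher and 133 lower in Mmp3+ and 70 and 39 in Il6+ cells, with 49 lower in Pi16+ cells. TMM factors gave 108 lower genes in Mmp3+ and 46 in Il6+ cells, and cells with a clear hashtag 35 lower genes in Il6+ cells. In the Xist class 105 genes were lower in Mmp3+ and 43 in Pi16+ cells, and in the Y class 36 were higher in Il6+ cells. The Il6+ share differed by 5.04 points and the Pi16+ share by 0.390 points, now positive, in the Y class; the cause was not tested. Of 60 named ratios, 56 stayed past 2-fold without each gene's highest cell and 60 with TMM factors. TMM factors moved every ratio up, so only the lower genes could have dropped out. Within the Xist class 53 of 56 were past 2-fold, counting Tac1 of Il6+ cells, which turned round (1.22). Within the Y class 49 of 57 were, while Fbln7 (0.02) and Krt14 (0.16) turned round in Pi16+ cells. Genes past 2-fold in all 3 annotations numbered 8 higher and 2 lower of 998 in the Xist class and 5 higher and 4 lower of 1391 in the Y class. The splits by class and the omission of the highest cell were chosen after seeing the data. No paired analysis was possible because each condition has 1 hashtag and the labels give no replicate number, and no replicate could be left out. The 55 Pi16+ cells of STA_Il23mc limit that annotation most.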
